A study of Mus musculus with 6 samples.

Results

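The 30 genes described here encode subunits of the BAF and PBAF chromatin remodelling complexes, MN1, and the coactivators known to work with MN1. They were chosen by name, and each gene was represented by the probe set with the highest mean over the 6 arrays among the probe sets whose platform annotation names that gene alone. All 30 of 30 had such a probe set, out of 18193 genes on the array. Of the 30 genes, 29 had a mean above the level set for testing (log2 4.07, where 30% of all probe sets lie lower), and Actl6b did not.

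The BAF complex is a mammalian SWI/SNF remodeller, which uses the energy of ATP to slide or evict nucleosomes and so opens enhancers and promoters. It is assembled from a core, an ATPase with its partner proteins, and subunits that tell its forms apart: ARID1 proteins mark canonical BAF, ARID2, PBRM1, PHF10 and BRD7 mark PBAF, and BRD9 marks a non-canonical form. MN1 is a transcriptional cofactor without a recognised DNA-binding domain. It is known to act with p300, CBP and NCOA3 on retinoic acid receptors and to associate with BAF in leukaemia.

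RNA from sorted bone marrow cells of the mouse was hybridised to 6 one-colour Affymetrix arrays. All cells expressed the MLL-AF9 fusion, a driver of acute leukaemia. Mn1wt cells (n = 3) kept Mn1 and Mn1null cells (n = 3) had it deleted with CRISPR-Cas9. In both groups the labels record an EGFP control vector, growth in medium with mouse interleukin 3, human interleukin 6 and mouse stem cell factor, and no further treatment. The labels give no mouse strain, age or guide sequence, and do not say whether Mn1null is 1 clone or a pool. They also do not say that replicates are separate cultures or animals. The p-values therefore cover the spread among these arrays, which may be technical.

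Array medians lay between 5.17 and 5.23, and the number of arrays limits the precision. Ptprc, which encodes the pan-leukocyte antigen CD45, was at 11.54 in Mn1wt and 11.57 in Mn1null. Of 4 haematopoietic markers, Ptprc among them, 2 rose (50%, against 23.2% of all genes tested) and 2 were not called. The mean level of these markers was 11.84 to 11.87 in Mn1wt and 12.02 to 12.10 in Mn1null. A list of 4 T cell genes had a mean level of 4.78 to 4.98 on the 6 arrays. Lineage genes moved strongly with the groups. Of 6 mast cell and basophil markers tested, 5 rose, and their mean level was 7.35 to 7.49 in Mn1wt and 9.52 to 9.59 in Mn1null. Of 6 monocyte and macrophage markers, 5 fell and 1 rose, with a mean level of 8.36 to 8.49 and 6.05 to 6.12. The bacterial labelling controls were also lower in Mn1null, and more so towards the 5′ end. The mean difference was -0.85 on the 5′ probe sets (8 of 8 without overlap), -0.49 on the middle ones (6 of 8) and -0.30 on the 3′ ones (6 of 8), and it was -0.094 on the hybridisation controls (4 of 18). The part of these shifts in the values below was not tested, and in bulk RNA fewer cells of a type and less RNA per cell cannot be told apart.

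Promoters of 24 of the 30 genes are in the RefSeq promoter table (build GRCm38.p6), each covering 250 bases before to 50 after a gene start. They were rich in CpG, with a median of 33 CpG per window of 300 bases against 7 over all 32851 windows. The GC box, GGGCGG on either strand, stood in windows of 22 of the 24 genes and in 35.7% of all windows. CCAAT on either strand was found for 4 genes (Actl6b, Dpf1, Dpf2 and Dpf3) against 37.4% of all windows, and the E-box CACGTG for 3 (Bcl7b, Bcl7c and Pbrm1) against 7.15%. TATAAA was found for Smarcd2 and Bcl11b, against 13.6%. These matches describe letters and not bound sites. The windows below belong to the 2 alternative ATPase genes, whose differences were unlike, and to a PBAF and a core gene that were lower in Mn1null. Smarca2 lies at chr19:26604910-26605209 on the plus strand, Smarca4 at chr9:21615919-21616218 on the plus strand, Pbrm1 at chr14:31018888-31019187 on the plus strand and Smarcb1 at chr10:75921565-75921864 on the minus strand, and capitals mark GC boxes.
Smarca2: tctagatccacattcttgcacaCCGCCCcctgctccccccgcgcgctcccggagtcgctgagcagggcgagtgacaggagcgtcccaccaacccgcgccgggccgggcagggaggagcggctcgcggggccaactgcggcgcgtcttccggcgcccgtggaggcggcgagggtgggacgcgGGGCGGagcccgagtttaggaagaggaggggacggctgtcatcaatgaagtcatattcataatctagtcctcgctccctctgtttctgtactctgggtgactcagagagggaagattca
Smarca4: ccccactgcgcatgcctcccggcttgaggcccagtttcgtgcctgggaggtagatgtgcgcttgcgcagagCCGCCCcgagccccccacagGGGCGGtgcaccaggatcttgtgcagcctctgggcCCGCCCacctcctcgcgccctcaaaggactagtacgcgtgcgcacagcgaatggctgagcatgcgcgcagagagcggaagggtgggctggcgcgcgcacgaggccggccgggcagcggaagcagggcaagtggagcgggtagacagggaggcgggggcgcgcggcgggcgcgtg
Pbrm1: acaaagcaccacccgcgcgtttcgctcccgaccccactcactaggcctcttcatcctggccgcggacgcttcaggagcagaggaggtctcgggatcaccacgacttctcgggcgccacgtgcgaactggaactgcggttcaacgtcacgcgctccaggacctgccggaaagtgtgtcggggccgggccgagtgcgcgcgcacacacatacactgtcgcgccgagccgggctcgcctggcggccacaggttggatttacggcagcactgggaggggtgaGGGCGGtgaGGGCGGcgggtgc
Smarcb1: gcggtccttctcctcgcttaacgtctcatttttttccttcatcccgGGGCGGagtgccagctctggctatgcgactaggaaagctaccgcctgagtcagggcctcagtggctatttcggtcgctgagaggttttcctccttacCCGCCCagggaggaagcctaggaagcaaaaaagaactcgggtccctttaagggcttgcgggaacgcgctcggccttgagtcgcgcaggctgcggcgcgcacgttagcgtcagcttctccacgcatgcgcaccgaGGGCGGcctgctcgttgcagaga
The Smarca2 and Smarca4 windows hold 2 and 3 GC boxes and 29 and 33 CpG. Those of Pbrm1 and Smarcb1 hold 2 and 3 GC boxes and 35 and 27 CpG.

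Differences are given as Mn1null minus Mn1wt on the log2 scale of the RMA values, and a gene is said to rise or fall where limma's adjusted p, over all 14680 genes tested, is under 0.05. By that rule 14 of the 29 tested genes (48.3%) changed, and 48.8% of all genes tested did, so the number that changed does not set these genes apart. Of the 29, 3 rose (10.3%) against 23.2% of all genes, and 11 fell (37.9%) against 25.6%. Their median difference was -0.088, and that of all genes tested was -0.0053. The changes were small: 2 of the 14 reached 0.5 on the log2 scale (14.3%), against 38.9% of all genes called, and 0 of 14 reached 2-fold, against 12.4%. Mn1null values lay all above Mn1wt for 6 of the 29 genes, against 27.6% of all genes, and all below for 13, against 30.1%. In total 19 (65.5%) did not overlap between groups, against 57.7% of all genes.

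**Figure D1:**
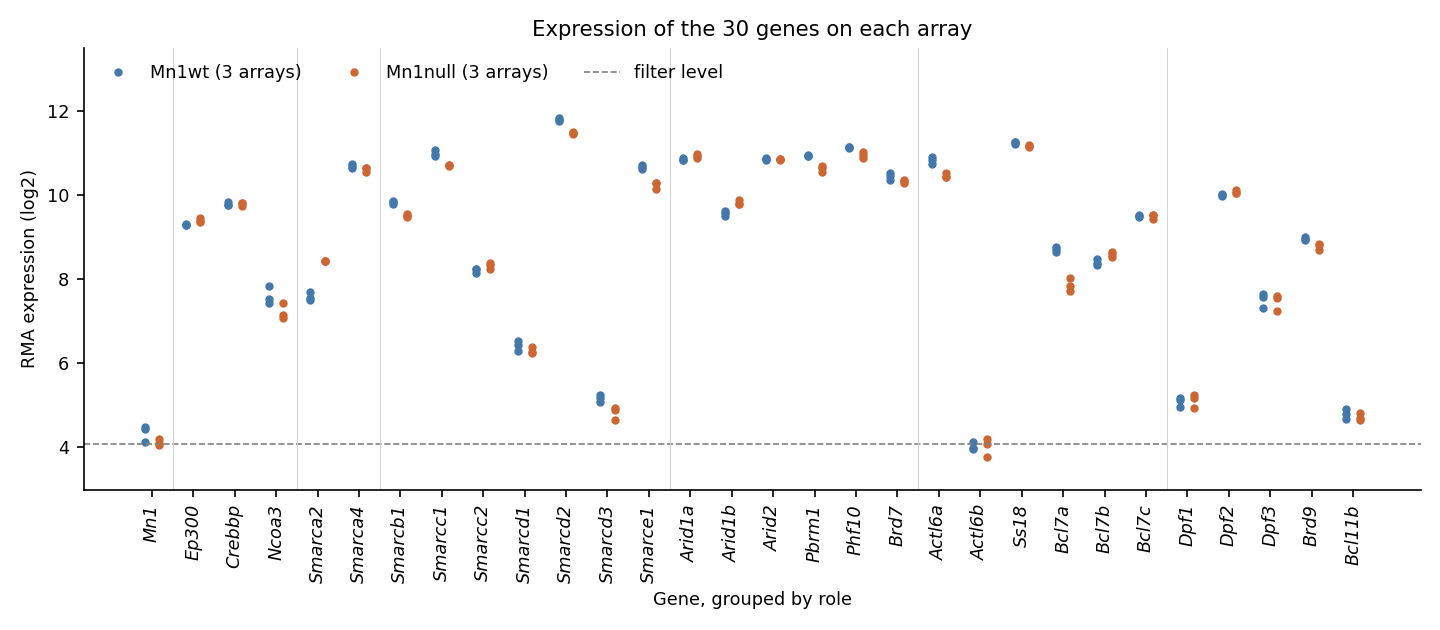
RMA expression (log2, vertical axis) of each of the 30 genes on the 3 Mn1wt and 3 Mn1null arrays, 1 point per array, with the filter level of 4.07 as a dashed line. Levels of different genes come from different probes and are not comparable. Within a gene, the groups separate most for Smarca2 and Bcl7a, and Mn1 and Actl6b lie at the filter level.

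**Figure D2:**
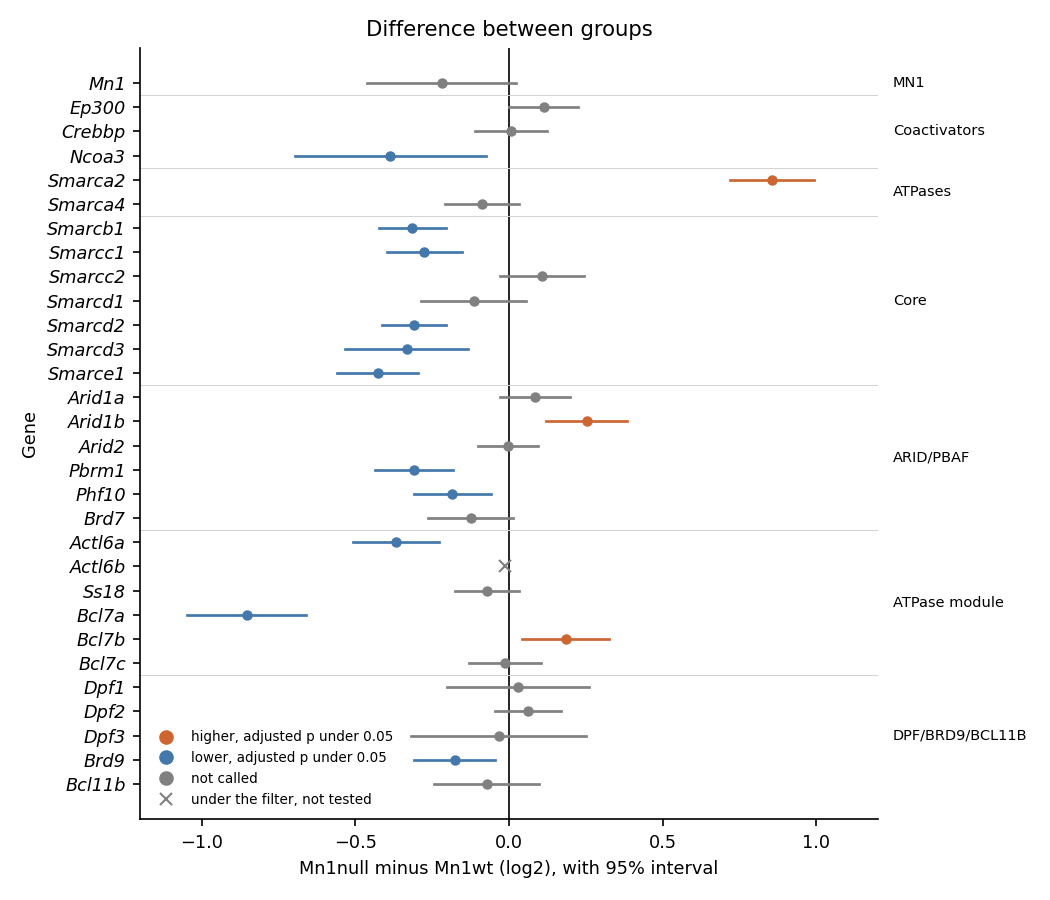
Difference between the group means of each gene (log2, points) with its 95% interval from limma (lines), by role. Smarca2 and Bcl7a lie farthest from 0, at 0.86 and -0.85, and the 10 other genes that fell lie between -0.43 and -0.18.

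Mn1 was read by 1 probe set, at 4.49, 4.12 and 4.44 in Mn1wt and 4.21, 4.12 and 4.07 in Mn1null. The groups overlapped, and all 6 values were near the filter level. It differed by -0.22 (95% interval -0.46 to 0.023), which did not pass (adjusted p = 0.121 by limma). Of 15 alternatives it passed in 1, the fit without Mn1wt replicate 2, the lowest of its group (-0.33, adjusted p = 0.00725 by limma). Without Mn1wt replicate 1 or Mn1wt replicate 3 it was -0.15 and -0.17 and did not pass (adjusted p = 0.307 and 0.271). The labels do not place this probe set relative to the deletion, so its values do not check the group names.

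Among the coactivators, Ncoa3 fell and the acetyltransferase genes Ep300 and Crebbp did not pass. Ncoa3, a p160 coactivator of nuclear receptors, was at 7.45, 7.53 and 7.84 in Mn1wt and 7.15, 7.08 and 7.44 in Mn1null. The highest Mn1null value lay just under the lowest of Mn1wt, and the fall was 0.39 ± 0.131 (SE; adjusted p = 0.0458 by limma). Its second probe set fell by 0.21. The call did not hold in 4 of the 6 fits that each left out 1 array, which were those without Mn1wt replicate 2 (adjusted p = 0.0696), Mn1wt replicate 3 (0.106), Mn1null replicate 1 (0.119) and Mn1null replicate 2 (0.135).

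Ep300, which encodes the p300 acetyltransferase, was at 9.28, 9.32 and 9.30 in Mn1wt and 9.47, 9.37 and 9.40 in Mn1null. All Mn1null values were above all Mn1wt values, but the difference of 0.11 was small and did not pass (adjusted p = 0.0891 by limma). Crebbp, which encodes its relative CBP, differed by 0.0057 (95% interval -0.11 to 0.12) on its highest probe set. Its 3 other probe sets did not give 1 direction. A probe set at 8.78 in Mn1wt fell by 0.86, another at 7.93 fell by 0.20, and a dim one at 4.66 rose by 0.93 (adjusted p = 0.0029, 0.0456 and 4.21e-04 in the limma fit of all probe sets). The direction for Crebbp therefore depends on the probe set.

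The 2 ATPase genes differed unequally. Smarca2 encodes BRM and Smarca4 encodes BRG1, alternative motors of which a complex holds 1. Smarca2 was at 7.51, 7.55 and 7.69 in Mn1wt and 8.44, 8.44 and 8.43 in Mn1null. The groups were far apart relative to their spread, and Smarca2 rose by 0.86 ± 0.057 (SE), or 1.81-fold (adjusted p = 2.95e-05 by limma). It is the largest rise of the 29 genes, and a second probe set rose by 0.44 (5.68, 5.83 and 6.05 against 6.38, 6.22 and 6.30).

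Smarca4 was at 10.66, 10.70 and 10.76 in Mn1wt and 10.64, 10.56 and 10.65 in Mn1null. Its Mn1null values lay below those of Mn1wt by a narrow margin. The mean difference was -0.088 (95% interval -0.21 to 0.031) and did not pass (adjusted p = 0.197 by limma). Its second probe set, at 8.95 in Mn1wt, fell by 0.65 (adjusted p = 0.00195 in the fit of all probe sets), and the mean of both fell by 0.37 (adjusted p = 0.00331 by limma). Both probe sets of Smarca2 thus rose, and those of Smarca4 fell or did not pass.

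Of 7 core subunit genes tested, 5 fell by small amounts (71.4%, against 25.6% of all genes), and Smarcc2 and Smarcd1 did not pass. By limma 0 of the 7 rose, against 23.2% of all genes, and 0 were higher at an unadjusted p under 0.05. Their median difference was -0.31. Whether these shares differ from those of all genes was not tested. Smarce1, which encodes a subunit with an HMG box, fell most on its highest probe set, from 10.66, 10.63 and 10.72 to 10.29, 10.16 and 10.29. That is a fall of 0.43 ± 0.055 (SE; adjusted p = 6.19e-04 by limma) without overlap. A second Smarce1 probe set went the other way, from 9.67, 9.67 and 9.67 to 9.80, 9.91 and 9.90, and rose by 0.20 (adjusted p = 0.0161 in the fit of all probe sets). With the mean of its probe sets the difference of Smarce1 was 0.013 (adjusted p = 0.863 by limma), so its fall rests on 1 probe set.

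Smarcb1, which encodes the SNF5 subunit that clamps the nucleosome, fell by 0.31 ± 0.046 (SE), from 9.79, 9.85 and 9.86 to 9.49, 9.51 and 9.55 (adjusted p = 0.00114 by limma). The groups did not overlap. A second probe set fell by 0.30, and another, dim probe set differed by -0.17 and did not pass. The last of these is the probe set designed for 1 transcript, so the call was lost with such probe sets alone (adjusted p = 0.247 by limma).

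The scaffold gene Smarcc1 fell by 0.28 ± 0.051 (SE; adjusted p = 0.00359 by limma), from 10.98, 10.93 and 11.07 to 10.72, 10.70 and 10.73. All 4 of its probe sets were lower in Mn1null without overlap, by 0.19 to 0.43, and 3 of them passed. Its paralog Smarcc2 was at 8.15, 8.25 and 8.24 in Mn1wt and 8.24, 8.34 and 8.39 in Mn1null. The groups overlapped, and they differed by 0.11 (95% interval -0.028 to 0.25), which did not pass.

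Smarcd1, Smarcd2 and Smarcd3 encode alternative subunits that connect the complex to transcription factors, and Smarcd2 is known for its part in neutrophil granule formation. Smarcd2 fell by 0.31 ± 0.044 (SE; adjusted p = 9.72e-04 by limma), from 11.83, 11.76 and 11.79 to 11.50, 11.49 and 11.47. Its 3 probe sets all fell, by 0.19 to 0.31. Smarcd3, known as the form of heart muscle, was dim and fell by 0.33, from 5.08, 5.17 and 5.24 to 4.94, 4.89 and 4.66 (adjusted p = 0.0144 by limma). Smarcd1 differed by -0.12 with overlap (95% interval -0.29 to 0.055).

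Among the subunits that tell the complexes apart, those of canonical BAF and of PBAF did not follow 1 direction. Arid1b rose by 0.25 ± 0.056 (SE; adjusted p = 0.00805 by limma), from 9.57, 9.50 and 9.64 to 9.78, 9.88 and 9.80. Arid1a, its more studied relative and a frequent target of mutation in cancer, was at 10.88, 10.83 and 10.85 in Mn1wt and 10.88, 10.93 and 10.99 in Mn1null. That difference of 0.084 did not pass (adjusted p = 0.196 by limma), although a second, dimmer probe set rose by 0.31 and the mean of both by 0.20 (adjusted p = 0.00967 by limma). Both ARID1 genes were thus higher or not called on each probe set.

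In PBAF, Pbrm1 and Phf10 fell, and Arid2 and Brd7 did not pass. Pbrm1 encodes polybromo, a subunit with a row of bromodomains that read acetylated histones. It went from 10.94, 10.97 and 10.93 to 10.71, 10.65 and 10.55 on its highest probe set, a fall of 0.31 ± 0.053 (SE; adjusted p = 0.00254 by limma). The other probe sets of Pbrm1 fell further, by 0.60 and 0.88 (adjusted p = 0.00135 and 3.07e-05 in the fit of all probe sets). On the last of these the values were 10.05, 10.00 and 10.05 in Mn1wt and 9.20, 9.21 and 9.06 in Mn1null, a 1.84-fold difference without overlap. All 3 probe sets agree in direction, and the size ranges from 0.31 to 0.88.

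Arid2 hardly moved, with a difference of -0.0032 (95% interval -0.10 to 0.095) at 10.86 in both groups. Its 4 probe sets differed by -0.074 to 0.063, and 0 of them passed in limma's fit (0 at an unadjusted p under 0.05). Phf10, a PHD finger subunit, fell by 0.18 (adjusted p = 0.0232 by limma). Leaving out Mn1wt replicate 1 (adjusted p = 0.0664), Mn1wt replicate 3 (0.0606), Mn1null replicate 1 (0.0621) or Mn1null replicate 2 (0.0669) ended the Phf10 call, and a dim second probe set gave 0.020. Brd7 differed by -0.12 with overlap (adjusted p = 0.121 by limma) and passed in the fit with an intensity trend (0.0251).

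The ATPase module includes the gene with the largest fall of the 29 on the highest probe set of each gene. Bcl7a, a gene first found at a chromosome break in a B cell lymphoma, was at 8.66, 8.72 and 8.78 in Mn1wt and 7.73, 7.83 and 8.02 in Mn1null. The Mn1null values were all lower by more than the spread of either group, with a fall of 0.85 ± 0.082 (SE), or 1.81-fold (adjusted p = 1.48e-04 by limma). A second probe set fell by 0.45, from 5.87, 5.88 and 6.31 to 5.63, 5.68 and 5.41, and 3 others lay under the filter. With the mean of all 5 probe sets, those under the filter included, Bcl7a fell by 0.28. By such means its fall was not the largest, as Pbrm1 differed by -0.60.

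The paralogs of Bcl7a did not fall. Bcl7b was at 8.38, 8.35 and 8.49 in Mn1wt and 8.65, 8.52 and 8.59 in Mn1null and rose by 0.18 (adjusted p = 0.0378 by limma), a call that ended without Mn1wt replicate 1 (adjusted p = 0.103), Mn1wt replicate 2 (0.112), Mn1null replicate 1 (0.119) or Mn1null replicate 3 (0.0879). Bcl7c was at 9.51 and 9.49 and differed by -0.013 (95% interval -0.13 to 0.10). Its 4 probe sets ranged from -0.013 to 0.14, and 0 of them passed in limma's fit (0 at an unadjusted p under 0.05).

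Actl6a, an actin-related subunit of dividing cells, fell by 0.37 ± 0.058 (SE; adjusted p = 0.00172 by limma), from 10.75, 10.90 and 10.83 to 10.42, 10.53 and 10.43. All 3 probe sets fell by nearly the same amount, 0.37, 0.43 and 0.37. Actl6b, which replaces it in neurons, lay at 3.96, 4.14 and 3.99 in Mn1wt and 4.21, 4.08 and 3.77 in Mn1null, under the filter in the mean. Ss18, the subunit fused in synovial sarcoma, was at 11.27, 11.21 and 11.26 and at 11.20, 11.17 and 11.15. Its Mn1null values were all below those of Mn1wt, yet they differed by only -0.072 (95% interval -0.18 to 0.032) and did not pass.

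The DPF genes encode double PHD finger readers, of which Dpf2 is the widely expressed form. Dpf2 was at 10.01 and 10.07 and differed by 0.062 (95% interval -0.044 to 0.17). Dpf1, a form of neurons, was dim at 5.09 and 5.12 and overlapped between groups. Dpf3, known from heart and skeletal muscle, differed by -0.034 on its highest probe set (7.57, 7.65 and 7.32 against 7.26, 7.61 and 7.57). A dimmer Dpf3 probe set went from 4.81, 4.63 and 4.53 to 5.35, 5.27 and 5.37 without overlap, a rise of 0.68 (adjusted p = 4.33e-04 in the limma fit of all probe sets). The probe sets of Dpf3 thus give no single answer.

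Brd9, a bromodomain subunit of non-canonical BAF, went from 8.96 ± 0.039 in Mn1wt to 8.78 ± 0.077 in Mn1null (SD, n = 3 each) without overlap and fell by 0.18 (adjusted p = 0.0339 by limma). The Brd9 call was lost without Mn1wt replicate 1 (adjusted p = 0.0797), Mn1wt replicate 2 (0.0534), Mn1wt replicate 3 (0.0926), Mn1null replicate 1 (0.0681) or Mn1null replicate 2 (0.0918), and held only without Mn1null replicate 3. Bcl11b, a T cell transcription factor that associates with BAF, was near the filter level at 4.80 and 4.73, and 0 of its 3 tested probe sets passed in limma's fit (0 at an unadjusted p under 0.05).

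Counted over probe sets, the 30 genes had 71, of which 63 passed the filter. Of these 63, 33 were called in the limma fit of all probe sets, 8 higher and 25 lower, and 46.1% of all 26395 probe sets in that fit were called. The share of all probe sets in each direction was not computed. A gene with several probe sets counts more than once here. Of 21 genes with more than 1 tested probe set, 13 had differences of 1 sign on all of them. All tested probe sets were called in 1 direction for 6 genes (Ncoa3, Smarca2, Smarcd2, Pbrm1, Actl6a and Bcl7a), while Crebbp and Smarce1 had calls in both directions. These counts were not made over all genes with several probe sets, so they do not set the 21 genes apart.

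**Figure D3:**
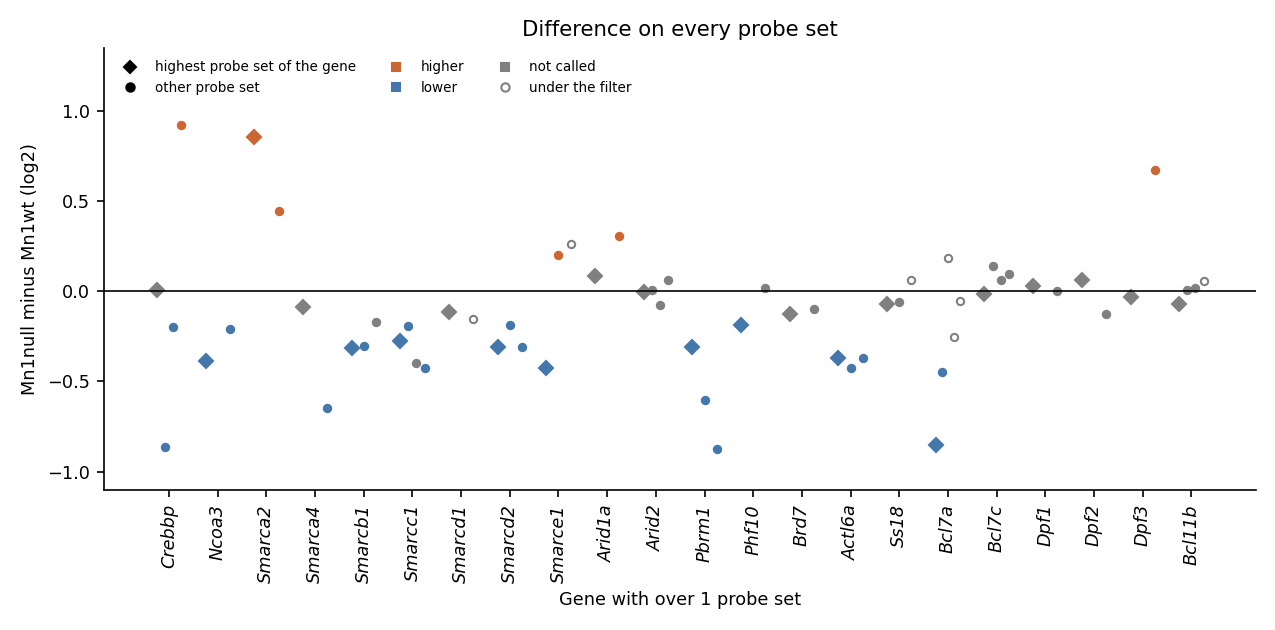
Difference between Mn1null and Mn1wt (log2, vertical axis) on every probe set of the genes with over 1 probe set; diamonds are the highest probe set of each gene, circles the others, and colour gives the call. Probe sets of Actl6a and Smarcd2 lie together below 0, those of Pbrm1 are all below 0 but spread from -0.88 to -0.31, and those of Crebbp spread from -0.86 to 0.93.

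Related genes can stand in for each other in the complex, so the differences of 14 pairs of tested relatives were compared within arrays. This removes a shift that an array gives equally to both genes, and shows unequal change, not which gene changed. A shift that varies with probe position, as in the labelling controls, would remain, and its part in these pairs was not tested. In an exact permutation test over the 6 arrays, 2-sided, the smallest p for 3 against 3 is 0.10, which 9 of the 14 pairs reached, with an adjusted p of 0.156 over the 14. No pair could pass 0.05 by design. Reaching 0.10 means here that the groups did not overlap, and 57.7% of all single genes tested did not overlap either. The share over other pairs of genes was not computed, and several of these pairs hold the same gene. Without the share over other pairs, the count of 9 cannot be said to set these pairs apart.

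The widest shifts were those of Bcl7a against Bcl7b and of Smarca2 against Smarca4. Bcl7a minus Bcl7b was 0.27, 0.37 and 0.29 in Mn1wt and -0.92, -0.69 and -0.57 in Mn1null, a shift of -1.04 (exact permutation p = 0.10). Smarca2 minus Smarca4 was -3.14, -3.15 and -3.07 in Mn1wt and -2.19, -2.12 and -2.22 in Mn1null, a shift of 0.94 (exact permutation p = 0.10). In both pairs the groups were separated by several times the spread within them. Bcl7a against Bcl7c shifted by -0.84 and Smarcc1 against Smarcc2 by -0.39.

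The other pairs that did not overlap shifted less. Smarcd1 shifted against Smarcd3 by 0.22 and against Smarcd2 by 0.19, Bcl7b against Bcl7c by 0.20, Arid1a against Arid1b by -0.17 and Ep300 against Crebbp by 0.11. Smarcd2 against Smarcd3, both of which fell, shifted by 0.024 with overlap. The DPF pairs and Brd7 against Brd9 overlapped as well, with shifts of -0.033 to 0.096.

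**Figure D4:**
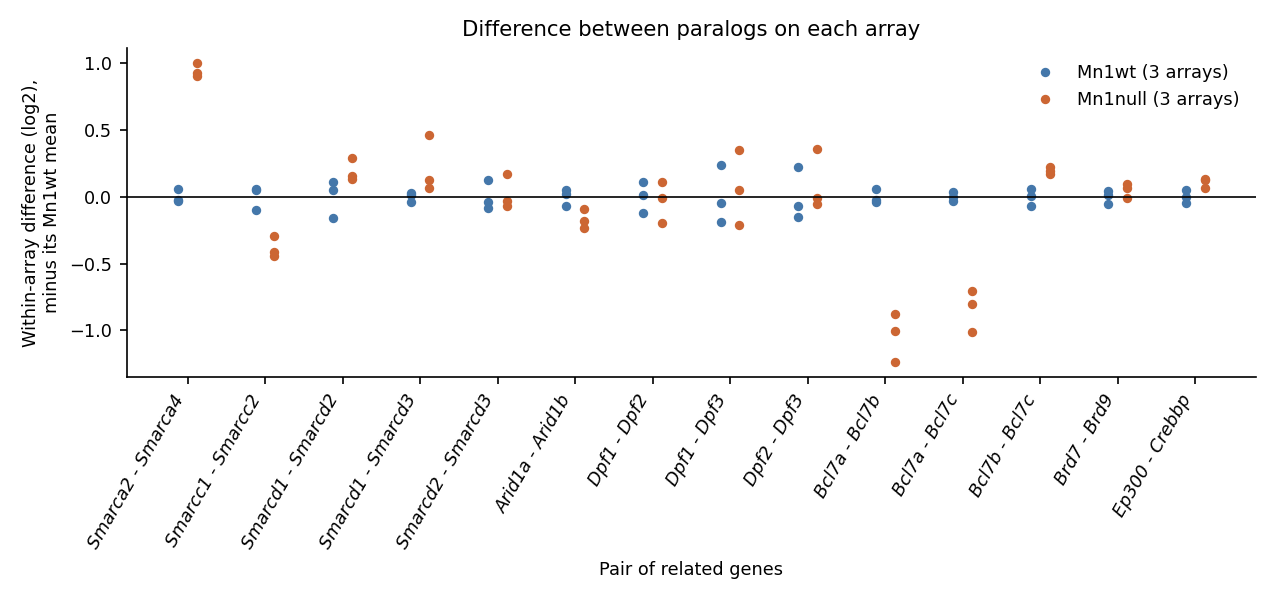
Within-array difference between 2 related genes (log2), set to 0 at its Mn1wt mean, for the 14 tested pairs; each point is 1 array. Mn1null arrays stand about 0.94 above 0 for Smarca2 against Smarca4 and -1.04 from it for Bcl7a against Bcl7b, while the DPF pairs overlap.

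Of 5 other SWI/SNF partners tested, listed apart from the 30 genes, 1 rose (20.0%, against 23.2% of all genes). By limma 0 fell, against 25.6% of all genes, and 0 were lower at an unadjusted p under 0.05. Their median difference was 0.094. The gene that rose was Bicral, a subunit of non-canonical BAF, by 0.30, from 6.89 ± 0.10 to 7.19 ± 0.033 (SD, n = 3 each; adjusted p = 0.00543 by limma).

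Of 10 further coactivators of nuclear receptors and partners of p300 and CBP tested, 2 rose and 5 fell, with a median difference of -0.15. The shares were 20.0% higher and 50% lower, against 23.2% and 25.6% of all genes, and their difference was not tested. Cited2, which binds p300 and CBP and limits their use by hypoxia-inducible factors, rose by 0.66, from 11.85 ± 0.032 to 12.51 ± 0.010 (SD, n = 3 each). The p160 coactivator gene Ncoa1 rose by 0.24, while its relatives Ncoa2 and Ncoa3 fell. Ncoa2 fell by 0.33 (adjusted p = 0.0141 by limma), and Ncoa3 as given above. The arginine methyltransferase genes Carm1 and Prmt1, which modify histones beside p160 coactivators, fell by 0.73 and 0.57 (adjusted p = 2.87e-04 and 6.75e-05 by limma).

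Of 6 tested genes for receptors of retinoids and vitamin D, on which MN1 is known to act, 1 rose and 1 fell. These 2 called genes are 33.3% of the 6, against 48.8% of all genes. The median difference was 0.025, and Rarb lay under the filter. Vdr, the vitamin D receptor gene, fell by 1.22, or 2.33-fold, from 6.39 ± 0.049 to 5.16 ± 0.085 (SD, n = 3 each; adjusted p = 6.61e-06 by limma). Rara rose by 0.28 (adjusted p = 0.017 by limma), a call lost without Mn1null replicate 1 (adjusted p = 0.0584) or Mn1null replicate 3 (0.0563). Rxrb, at 9.85 in both groups, differed by 1.33e-04.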

How the data were processed

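Per the submitters' processing notes, the authors ran RMA, and the deposited table holds log2 values, 1 per probe set and array. The method subtracts background, gives all arrays the same distribution and combines the probes of a set; it hides differences in total RNA and compresses low signals. RMA's version and the probe positions: not given in the sources used here. Of 45101 probe sets, 64 controls were left out of tests, 34945 named 1 gene, 932 named several and 9160 are not listed in the platform annotation. The 14680 genes with a mean of at least log2 4.07 (the 30th percentile of probe sets) were tested in limma 3.58.1 (lmFit, eBayes; R 4.3.3), 2-sided, with no block and with Benjamini-Hochberg adjustment. Probe sets were fitted the same way. The steps were tested on simulated data with 50 genes changed per size. Of changes of 0.25 on the log2 scale 26% were recovered, of 0.5 64%, of 1 94% and of 2 100%. Among 153 genes called there, 11 were false. Far fewer genes changed in the simulation than were called here, so these shares do not carry over directly. All 30 members were named, with up to 2 genes per direction of each further list by smallest p. Ncoa2 was added as a relative of Ncoa1 and Ncoa3. Members and lists were chosen with earlier results of these data known. The closing section gives the alternatives tried.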

Additional observations from a re-analysis of the deposited data

How the results depend on the processing

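Over the 29 genes tested, the alternatives gave 460 values, of which 406 kept their direction and their side of the threshold, 28 lost the call, 5 gained it, 2 reversed and 19 uncalled values changed sign. Smarca2, Smarcc1, Smarcd2, Arid1b, Pbrm1, Actl6a and Bcl7a kept their calls under every alternative run, although the size moved with the probe set: 0.44 for Smarca2 on the probe set for 1 transcript, and -0.28 for Bcl7a and -0.60 for Pbrm1 with the mean of probe sets. With the mean of all probe sets, 5 genes rose in place of 3, and 51.7% of the genes were called, against 48.9% of all genes. With that mean the difference of Smarce1 reversed to 0.013 (adjusted p = 0.863 by limma), and that of Dpf3 reversed to 0.32 (adjusted p = 0.0133). Smarce1 and Dpf3 have probe sets of unlike direction. At a threshold of 0.01, 7 genes fell in place of 11 and 2 rose, so 31.0% were called, against 37.2% of all genes. At that threshold 21 probe sets of the members were called in place of 33. The share of all probe sets called was not computed for any alternative. Leaving out each array in turn gave 2 to 3 genes that rose, 8 to 11 that fell, 26 to 28 probe sets called and 6385 to 6676 of all genes called. Pairs of relatives without overlap numbered 9 to 11. Leaving out an array cannot make separated groups overlap, so the pair count could not show a loss. In these fits 34.5% to 43.3% of the members were called, against 43.5% to 45.5% of all genes. With the replicate number as a block, 3 genes rose and 11 fell, as without it, and 6943 of all genes were called in place of 7170. The shares called with the block were 48.3% of the members and 47.3% of all genes. Deviations of same-numbered arrays correlated at -0.039, 0.11 and 0.080, so the numbers are not treated as pairs. The count of 9 pairs of relatives without overlap was 6 with quantile normalization, 8 with the mean of probe sets, with probe sets for 1 transcript and with the filter at the 50th percentile, and 10 with no filter, where Actl6b adds a pair to the 14 tested. With median centring 2 genes rose and 10 fell (41.4% called, against 47.1% of all genes). The stricter filter at the 50th percentile left 25 of the genes, of which 3 rose and 10 fell (52% called, against 61.6% of all genes). Low signal limits what can be said of Mn1, Smarcd3, Actl6b, Dpf1 and Bcl11b.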

Other observations

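Of 14 genes of NuRD, a remodeller that removes histone acetylation, 3 rose and 6 fell, with a median difference of -0.14. The shares were 21.4% higher and 42.9% lower, against 23.2% and 25.6% of all genes tested. Chd3, an ATPase of NuRD, rose by 0.42, or 1.33-fold (adjusted p = 0.00103 by limma). Gatad2b rose by 0.38, which did not hold for the mean over its probe sets (0.042, adjusted p = 0.524). Mta2 and the histone-binding gene Rbbp7 fell by 0.36 and 0.29 (adjusted p = 7.29e-04 and 0.0024 by limma).

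Of 16 tested genes of the ISWI, INO80 and SRCAP remodellers, 1 rose (6.25%, against 23.2% of all genes) and 8 fell (50%, against 25.6%), with a median difference of -0.16. Baz1a, a subunit of ISWI complexes that space nucleosomes, fell by 0.64, from 12.10 ± 0.0072 to 11.46 ± 0.032 (SD, n = 3 each; adjusted p = 2.86e-05 by limma). The AAA+ ATPase gene Ruvbl1 fell by 0.52, from 10.97 ± 0.020 to 10.44 ± 0.034 (adjusted p = 8.10e-05 by limma). Bptf, the gene that rose, differed by 0.16 (adjusted p = 0.0365) and lost its call under 10 of 16 alternatives, among them leaving out any 1 of 5 arrays, with adjusted p up to 0.745 over all of them. Whether these lists differ from the BAF genes or from all genes was not tested.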
